A study of Mus musculus with 21 samples.

Results

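The cytosolic ribosomal protein genes were examined in AGRP and POMC neurons, neuron types of the hypothalamic arcuate nucleus with opposite actions on appetite, in fed and food-deprived (FD) mice. Members were all gene symbols made of Rps or Rpl and a number, with or without the paralog letters a, l or x, together with Rpsa and Rplp0 to Rplp2. This gave 81 of the 35266 genes in the tables, 32 of the small (40S) and 49 of the large (60S) subunit. Of these, 78 passed the filter on low counts (CPM, a gene's counts scaled to the library's total, over 1 in at least 3 libraries) and were tested among 16513 genes. The other 3, Rpl10l, Rpl39l and Rpl3l, are paralogs known for testis or muscle expression. Rpl39l was at 0 in every library, and Rpl10l and Rpl3l reached at most 0.103 and 1.69 TPM (a level per unit of transcript length). The symbol rule leaves out some ribosomal genes named differently, which are given separately at the end.

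Each of the 21 libraries came from 1 male mouse on the C57BL/6J background, and 44 to 214 GFP-labelled cells were sorted by hand for each. AGRP neurons came from NPY-hrGFP mice, so the label follows expression of neuropeptide Y, and POMC neurons from Pomc-GFP mice. Fed mice had food ad libitum (AGRP n = 5, postnatal day 46 to 55, POMC n = 5, day 51 to 56), and FD mice had only water for 24 hours (AGRP n = 6, day 47 to 55, POMC n = 5, day 54 to 56). Cell type and reporter line cannot be told apart in this design. The libraries held 9822298 to 37663979 gene counts. Agrp averaged 3456 ± 1154 TPM (SD, n = 5) in AGRP fed libraries against 15.5 ± 13.3 (n = 5) in POMC fed ones, and Pomc 16029 ± 4652 TPM in POMC fed against 43.5 ± 24.6 in AGRP fed libraries. Of 30 markers of astrocytes, oligodendrocytes, microglia, endothelium and ependyma, 10 had a mean under 1 TPM in every group, 3 were at 0 everywhere, and their summed level was 44.2 to 117 TPM per library. The highest was Mbp, a myelin gene, at up to 40.1 TPM.

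The ribosome joins amino acids into protein, with the 40S subunit reading the messenger RNA and the 60S subunit forming the peptide bond. Its proteins are made in near-equal amounts, and their messenger RNAs are among the most abundant and shortest of the cell. They typically start with a run of pyrimidines, the 5′ terminal oligopyrimidine (TOP) tract, through which mTORC1 and LARP1 control their translation with nutrient supply. Much of this control acts on translation and does not appear in messenger RNA levels, which are what RNA-Seq measures.

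Start sites are shown here for members on which the results turn, because a TOP tract is typical of these genes. Of the 81 members, 60 had an entry in the RefSeq promoter table (GRCm38.p6). Windows of 15 bases before and 15 from the annotated start are given 5′ to 3′, with runs of 8 or more C or T in capitals.
Rpl27a (chr7:109519180-109519209, + strand): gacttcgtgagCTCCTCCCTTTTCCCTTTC
Rpl7a (chr2:26910792-26910821, + strand): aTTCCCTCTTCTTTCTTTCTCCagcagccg
Rpl15 (chr14:18270972-18271001, - strand): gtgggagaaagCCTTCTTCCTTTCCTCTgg
Rps6 (chr4:86857353-86857382, - strand): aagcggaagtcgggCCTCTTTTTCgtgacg
Rps26 (chr10:128626492-128626521, - strand): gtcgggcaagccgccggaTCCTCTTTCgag
Rps27 (chr3:90213634-90213663, - strand): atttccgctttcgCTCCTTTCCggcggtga
Rps3 (chr7:99483695-99483724, - strand): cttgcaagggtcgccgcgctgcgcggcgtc
Rplp0 (chr5:115559452-115559481, + strand): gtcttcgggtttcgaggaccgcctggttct
Rpl36a (chrX:134585639-134585668, + strand): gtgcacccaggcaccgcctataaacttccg
Rpl41 (chr10:128549154-128549183, - strand): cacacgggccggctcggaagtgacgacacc

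The run was 21 bases long in Rpl7a, 19 in Rpl27a, 17 in Rpl15, 10 in Rps6 and 9 in Rps26 and Rps27. No run of 8 was found in these windows for Rps3, Rplp0, Rpl36a and Rpl41. Among the 60 members, 26 (43.3%) had such a run at a listed start, against 13.9% of the 27025 genes in the promoter table. The stricter form, C at the annotated start followed by 4 C or T, was found in 13 members (21.7%) and in 3.01% of all genes. The letters CGGAAG on either strand, the core of the ETS family motif, were within 250 bases before to 50 after the start of 41 members (68.3%) and of 18.8% of all genes, and a match that reads CTTCCG can overlap a pyrimidine run. These matches are descriptions of the annotated starts, which may not be the starts used in these neurons. Members with and without a run had similar median log2 fold changes with deprivation, at 0.05 and 0.01 in AGRP and -0.67 and -0.56 in POMC neurons.

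Among themselves, the 78 members differed widely in level. On the TPM scale, the median member averaged 496 TPM over the 4 groups, 71 members exceeded 100 and 10 exceeded 1000 TPM. Of all genes in the tables, 13 members ranked in the top 100 and 66 in the top 1000. Rps27, a zinc-finger protein of the 40S subunit, was highest at 5015 ± 1422 TPM in AGRP fed, 3597 ± 1143 in AGRP FD, 5844 ± 3992 in POMC fed and 4220 ± 702 in POMC FD libraries. It was followed by Rpl4 (mean of the groups 1509), Rpl10 (1449), Rpl32 (1437) and Rps21 (1366). Rps4l had the lowest mean over the groups (46.7 TPM) and is a paralog of the X-linked 40S gene Rps4x, which averaged 740 TPM. Next came Rpl23a (66.4), Rpl18 (75.6), Rpl22 (78.4) and Rps27l (82.3).

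**Figure D1:**
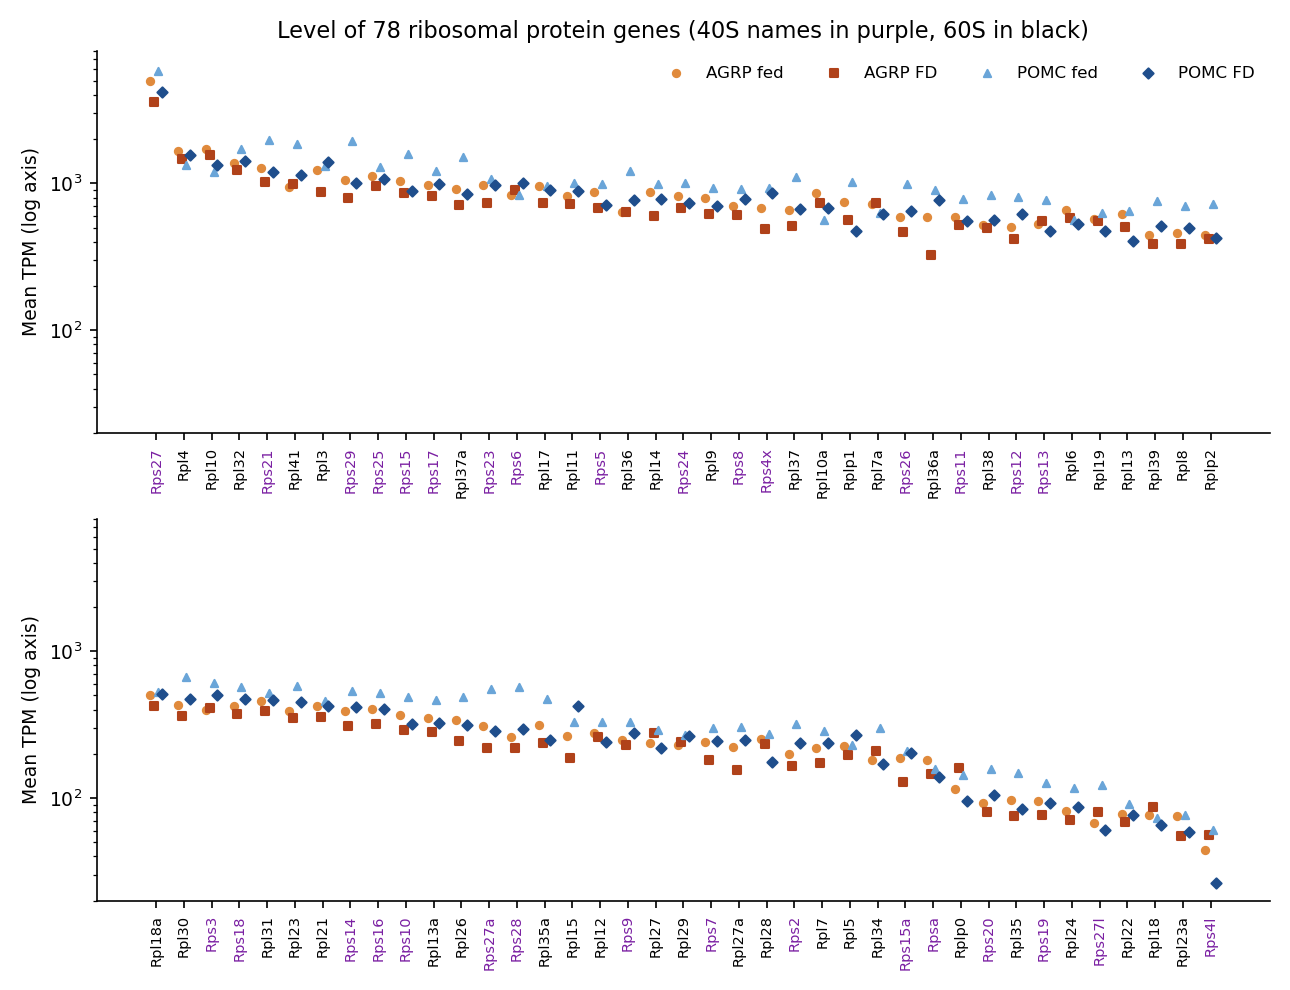
Mean TPM (log axis) of the 78 tested ribosomal protein genes in the 4 groups (n = 5, 6, 5 and 5), in order of their mean over the groups, with 40S names in purple and 60S names in black. Rps27 stands at the top in every group, Rps4l has the lowest mean in 3 groups and Rpl23a in AGRP FD.

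These unequal levels stand beside technical limits. TPM divides counts by the summed length of all annotated exons of a gene, so the ranking also follows the annotation. Relative to the median tested gene, that length was 0.0868 for Rps27 and 1.83 for Rps15a. Rps15a ranked 67 of the 81 members by TPM. Its CPM was 289 ± 38.8 in AGRP fed libraries, where Rps27 had 368 ± 120. Reads were assigned only where they mapped uniquely, and ribosomal protein genes have many processed pseudogenes. Of the 100-base windows of the longest coding transcript of each member (reads were 100 bases), more than 25% also occurred in transcripts of other annotated genes for 46 of 77 tested members with a transcript, and none did for only 5. The share was 91.1% for Rpl5, 84.4% for Rpl10, 83.6% for both Rpl36a and Rps6, 18.4% for Rplp0 and 0 for Rps3. The median level was 515 TPM in the 46 members (66.4 to 4669) and 479 TPM in the 5 (78.4 to 1366), which overlapped. In 24 of 81 members the annotated span, introns included, also overlapped another tested gene, among them small nucleolar RNAs such as Snora70. Where exons overlap, reads cannot be told apart by strand because counting ignored it. Overlap of exons was not examined on its own. The shared windows above can include it, since some of the other genes overlap the member's span. Examples are Fam69a for Rpl5 and Sphk2 for Rpl18.

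The summed level of the members differed mainly through 2 libraries. Members held 1.20 ± 0.232% of the gene counts in AGRP fed (SD, n = 5), 1.05 ± 0.209% in AGRP FD (n = 6), 1.61 ± 0.865% in POMC fed (n = 5) and 1.16 ± 0.114% in POMC FD libraries (n = 5). POMC fed replicates 1 and 2 had 2.71% and 2.38%, while the other 3 POMC fed libraries had 0.968%, 1.10% and 0.900%. All other libraries of the study lay between 0.837% and 1.56%. Without the 2 libraries the POMC fed mean was 0.989 ± 0.102% (n = 3), under the POMC FD mean. Of the 78 tested members, 60 had their highest CPM of the study in POMC fed replicate 1 and 10 in replicate 2, against 8.14% and 5.3% of all genes tested.

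**Figure D2:**
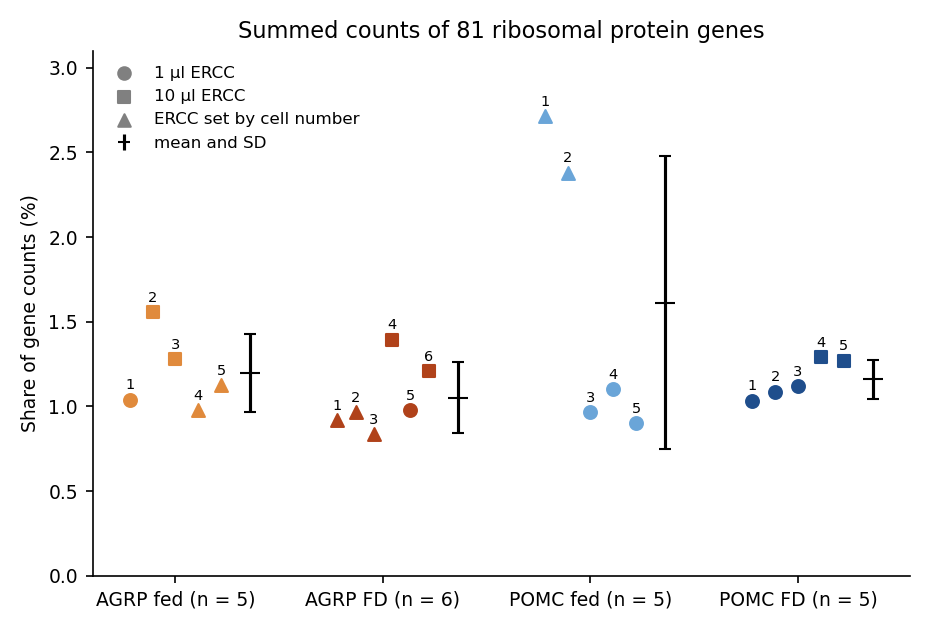
Share of all gene counts held by the 81 ribosomal protein genes in each library (points, numbered by replicate, with the shape giving how the ERCC spike-in was dosed) and group mean with SD. POMC fed replicates 1 and 2 lie at 2.71% and 2.38%, and every other library lies at or under 1.56%.

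The spike-in records give a further division of the libraries. ERCC RNA, a set of synthetic transcripts, was added as 1 µl, as 10 µl, or in proportion to the number of sorted cells. The study's methods give 1 µl or a volume equal to the cells sorted divided by 50, while 10 µl appears only in the sample labels. Which libraries were dosed by cell number was inferred here from volumes that match this rule. AGRP FD replicate 2, with 50 cells and 1 µl, meets both descriptions and was counted as dosed by cell number. POMC fed replicates 1 and 2 were the only POMC libraries dosed by cell number and the only POMC libraries from postnatal day 51, so dosing, age and the mice themselves cannot be told apart. AGRP fed replicate 3, also from day 51 but with 10 µl, had a share of 1.28%. In the AGRP groups the libraries dosed by cell number had low shares, 1.05 ± 0.105% (n = 2) in fed and 0.907 ± 0.0646% (n = 3) in FD mice. Libraries with 10 µl had the higher shares where they occurred, 1.42 ± 0.199% in AGRP fed, 1.30 ± 0.130% in AGRP FD and 1.28 ± 0.0137% in POMC FD (n = 2 each), beside 1.04%, 0.979% (1 library each) and 1.08 ± 0.0429% (n = 3) with 1 µl. Within the 1 µl libraries, POMC fed had 0.989 ± 0.102% and POMC FD 1.08 ± 0.0429% (n = 3 each).

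The excess in the 2 libraries was general but unequal across members. With replicates 1 and 2 set against the other 3 POMC fed libraries, both were above all 3 for 74 of 78 members (94.9%), against 17% of all genes tested, and the median log2 ratio was 1.47 for members and -0.03 for all genes. The 40S and 60S members had medians of 1.56 and 1.39. Rplp1, an acidic protein of the ribosomal stalk, had the largest log2 ratio at 2.82, followed by Rps28 (2.68), Rps29 (2.53), Rps27a (2.30, a ubiquitin fusion gene) and Rpl36 (2.28). At the other end were Rps6 (0.03), the 40S protein phosphorylated downstream of mTORC1, Rpl5 (0.04), which with Rpl11 binds 5S RNA, Rpl27a (0.25) and Rpl4 (0.28). In CPM, here always scaled between libraries by TMM (trimmed mean of M-values), Rplp1 stood at 356 and 376 in these 2 libraries against 52.2, 54.1 and 48.2 in the others of the group. Rps6 stood at 245 and 233 against 236, 250 and 218, so the groups of libraries overlapped for this gene.

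Other translation genes moved with the members to different degrees in the same 2 libraries. Mitochondrial ribosomal proteins had a median log2 ratio of 0.64 (77 genes), other messenger RNAs with a TOP tract 0.66 (14), elongation factors 0.24 (10), initiation factors -0.03 (30) and ribosome biogenesis genes 0.01 (55). The ribosomal genes outside the symbol rule, among them Fau and Gnb2l1, had a median of 1.52, with both libraries above the other 3 for 8 of 8. The 1600 shortest other genes had a median of 0.12, with both libraries above the other 3 for 25.1% of them. Among members, length relative to the median tested gene was 0.168 for Rplp1 and 0.200 for Rps28, against 0.696 for Rpl5. Rps6, at 0.299, and Rps20, at 1.26 with a log2 ratio of 1.93, did not follow this order. Depth in the 2 libraries was 18228116 and 26296967 counts, the markers of other cells summed to 65.2 and 64.1 TPM, and 108 and 102 cells had been sorted, all within the range of the other libraries. The part of ERCC dosing, age and transcript length in the excess was not tested.

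**Figure D3:**
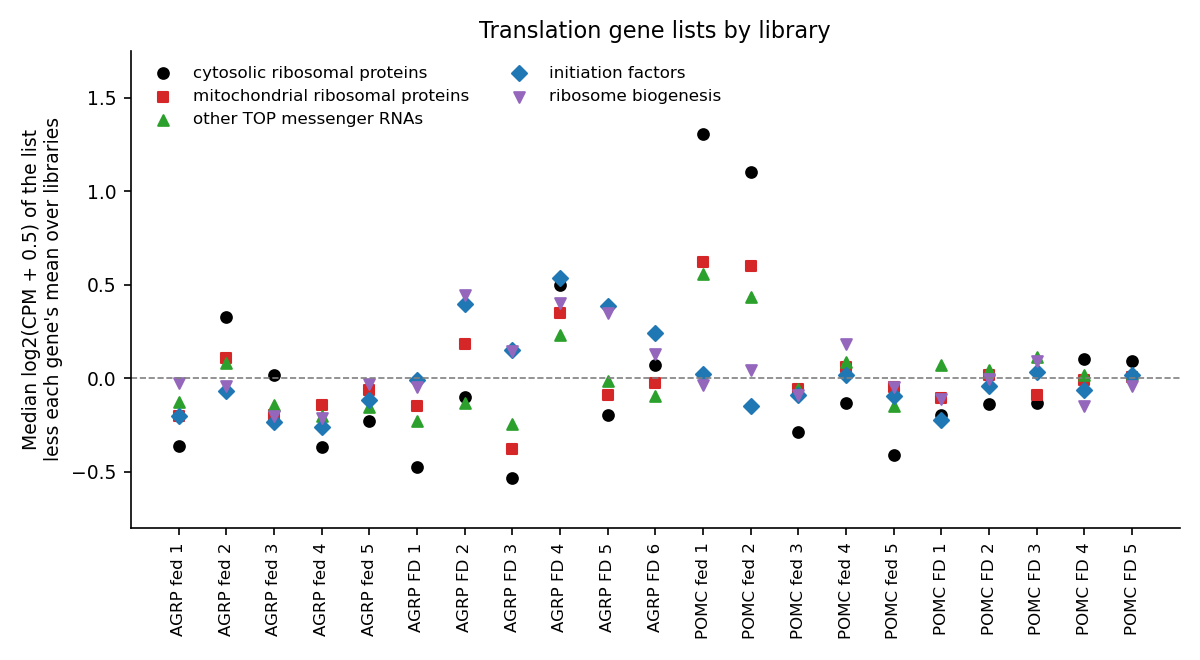
Median over each gene list of log2(CPM + 0.5) less the gene's mean over all 21 libraries. The cytosolic ribosomal proteins (black circles) reach 1.30 and 1.10 in POMC fed replicates 1 and 2, where initiation factors and ribosome biogenesis genes stay near 0, and initiation factors lie above 0 in AGRP FD replicates 2 to 6.

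Agrp itself rose in AGRP neurons with deprivation (log2 2.08, q = 0.000531), and the next comparison asked how the ribosomal proteins behaved in the same libraries. Each library pooled sorted cells, so a change in every cell and a change in only some of them cannot be told apart. None of the 78 members passed q under 0.05 (the adjusted p of edgeR's quasi-likelihood test, Benjamini-Hochberg over all genes), where 5.87% of all genes rose and 4.43% fell. With an unadjusted p under 0.05, 2 members were higher and 1 was lower (all genes, 11.6% and 10.7%). limma-voom and DESeq2 called 0 members. The median log2 fold change was 0.02 for members and -0.02 for all genes tested, with 41 members above 0 and 37 below (all genes, 48.5% and 51.4%), and the members' quartiles were -0.10 and 0.10. All genes had wider quartiles, -0.61 and 0.42. The even split depended on the scaling. On log2(TPM + 1) the median was -0.25 with 12 members above 0 and 66 below (all genes -0.28), with an offset for transcript length it was 0.21 with 67 above and 11 below (all genes 0.06), and with age cohort as a block 0.15 with 67 above and 11 below (all genes -0.04). The age cohorts were day 46 or 47, day 51, and day 54 to 56. The 40S members had a median of -0.03 and the 60S members of 0.04.

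Rplp0, the scaffold of the ribosomal stalk, came nearest to the threshold. Its CPM was 39.0, 48.2, 45.6, 42.5 and 47.5 in the AGRP fed libraries, and in the 6 AGRP FD libraries it ran from 62.5 through a median of 68.6 to 108. Every FD library was above every fed library, as for 4.08% of all genes. No other member separated the groups in either direction (3.57% of all genes did with FD lower). The log2 fold change was 0.74 ± 0.277 (SE, q = 0.0909, edgeR). The call passed with AGRP libraries alone (edgeR q = 0.0196), with age cohort as a block (0.011) and with an offset for transcript length (0.00914). On the deposited TPM the values were 115 ± 6.45 (n = 5) and 160 ± 22.1 (n = 6), a difference of 0.47 on the log2(TPM + 1) scale that did not pass (limma q = 0.179).

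Rps6 had CPM of 217, 262, 183, 193 and 194 in fed libraries and 177, a median of 284 and 341 in FD libraries, which overlapped. Its log2 fold change was 0.36 ± 0.155 (q = 0.157, edgeR). Rpl36a, a 60S protein encoded on the X chromosome, had 88.4, 111, 91.0, 49.9 and 70.3 CPM in fed libraries and 32.2, a median of 46.4 and 84.5 in FD libraries. The log2 fold change was -0.61 ± 0.265 (q = 0.155, edgeR), and on the deposited TPM, as log2(TPM + 1), it was -0.89 (limma q = 0.0135). On the TPM scale the median of all genes was itself -0.28, and 4 members, all lower, passed on it (all genes, 8.6% lower). With the length offset 3 members passed, all higher (all genes, 7.37%), and Rps6 was among them (edgeR q = 0.0473).

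The stalk partners of Rplp0 showed no such shift. Rplp1 had a log2 fold change of -0.13 (q = 0.912) and Rplp2 of 0.16 (q = 0.854). Rpl5 and Rpl11, which join 5S RNA and restrain Mdm2 when ribosome assembly fails, had 0.07 (q = 0.894) and 0.08 (q = 0.881). Rpsa, the laminin receptor homolog of the 40S subunit, had -0.05 (q = 0.923), Rps3, a 40S protein at the entry of the messenger RNA, 0.30 (q = 0.401), Rps19, mutated in Diamond-Blackfan anaemia, -0.06 (q = 0.942), and Rpl10, the late-joining 60S protein, 0.10 (q = 0.779). Rpl13a, Rpl22, Rpl23, Rpl26 and Rps20 lay between -0.21 and 0.10, with the lowest q of 0.772 for Rpl26. Of 30 members fixed for naming, 27 were tested, and they ran from -0.30 (Rps15a) to 0.74 (Rplp0).

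The translation factors around the ribosome gave a different count in the same comparison. Of 30 initiation factors, 8 rose and 1 fell in AGRP neurons with deprivation, with a median log2 fold change of 0.51. Eif5b, which joins the subunits, went from 203 ± 20.4 to 329 ± 47.6 CPM (log2 0.70, q = 0.0037), the scaffold Eif4g1 from 241 ± 44.3 to 370 ± 38.5 (0.62, q = 0.00484) and Eif3g from 51.7 ± 7.76 to 87.1 ± 15.1 (0.75, q = 0.00793). Eif4a2, an RNA helicase, fell from 994 ± 84.5 to 629 ± 163 (-0.66, q = 0.00355), all by edgeR. Of 22 genes of mTORC1 and ribosome signalling 3 rose and 1 fell. Larp1, which binds the TOP tract, had a log2 fold change of 0.65 (q = 0.00393), Rps6ka2 and Rps6ka3, S6 kinases of the RSK family, 0.92 (q = 0.00963) and 1.31 (q = 0.0286), and Pdcd4, an inhibitor of Eif4a, -0.91 (q = 0.00449). In the list of 14 other TOP messenger RNAs, 2 rose, Pabpc1, the poly(A)-binding protein (0.98, q = 0.00194), and Tpt1 (0.61, q = 0.0488).

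Of 55 ribosome biogenesis genes, 2 rose, Ltv1, a 40S assembly factor (log2 1.37, q = 0.00667), and Utp3 (0.93, q = 0.0252), and the median was 0.38. Among 10 elongation factors Eif5a rose (0.60, q = 0.0313), and of 77 mitochondrial ribosomal proteins Mrpl48 fell (-1.05, q = 0.0456). In POMC neurons deprivation gave 1 call over all these lists, Npm1, a nucleolar chaperone (0.65, q = 0.0327). These counts stand beside 5.87% and 4.43% of all genes rising and falling in AGRP neurons and 0.182% and 0.194% in POMC neurons. Whether the lists differ from the members was not tested. The list counts come from the main model with all libraries, and their dependence on scaling or on single libraries was not examined. That holds also for Npm1, which was not examined without POMC fed replicates 1 and 2. Of 6 astrocyte markers, 4 had a log2 fold change under 0 in the same comparison, and their median was -0.44. Aldh1l1 rose (log2 5.91, q = 0.0284, edgeR) at low levels, 0.0258 ± 0.0236 TPM in fed and 1.69 ± 1.91 TPM in FD libraries. The part of such markers in these counts was not tested.

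In POMC neurons, 0 of 78 members passed q under 0.05 for FD against fed. An unadjusted p under 0.05 was reached by 36 members, all lower in FD, against 6.66% of all genes lower and 5.51% higher, and 73 members had a log2 fold change under 0 (all genes, 51.7%). The median was -0.59, beside -0.02 for all genes. DESeq2 and limma-voom called 0 members. Rps15, Rps29 and Rps27a had the smallest p, at -1.06, -1.20 and -1.17 on the log2 scale (q = 0.144, 0.163 and 0.17, edgeR).

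This downward median rested on POMC fed replicates 1 and 2. With both left out, a choice made after their values were seen, 70 of 78 members were above 0 and 8 below, with a median of 0.20, and 2 members had an unadjusted p under 0.05, Rps15a (0.41) and Rps16 (0.67), neither with q under 0.05 (all genes, 9.36% with such a p). All genes then had 51.4% above 0. Within the 1 µl libraries alone the median was 0.13, with 54 members above 0. Age cohort as a block gave a median of -0.01. The day 51 cohort held only POMC fed replicates 1 and 2 and AGRP fed replicate 3. In every comparison with POMC fed libraries, this block is therefore not independent of leaving the 2 libraries out. Rps29, a 40S zinc-binding protein, shows the dependence. It had 614, 445, 91.9, 92.8 and 88.7 CPM in the POMC fed libraries and 144, 104, 111, 119 and 102 in the FD libraries, so that FD lay below the first 2 fed libraries and above the other 3. Rps6 was the 1 member whose FD libraries (254, 267, 273, 256 and 259) all exceeded the fed ones, where 1.08% of all genes did and 1.27% separated the other way, but its log2 fold change was 0.15 (q = 0.792). The 27 fixed members ran from -1.38 (Rps4l) to 0.15 (Rps6).

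**Figure D4:**
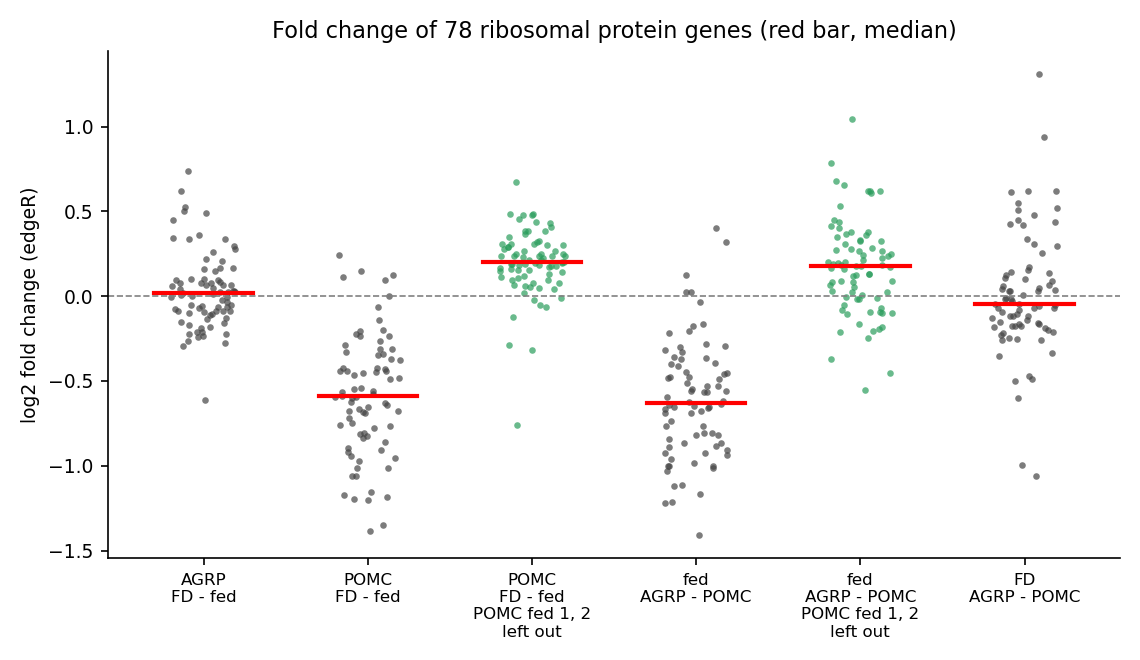
Log2 fold change (edgeR, TMM scaling) of the 78 tested members in each comparison, with the median as a red bar, for all libraries (grey) and without POMC fed replicates 1 and 2 (green). The POMC and the fed comparisons move from medians of -0.59 and -0.63 to 0.20 and 0.18 when the 2 libraries are left out.

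Between cell types in fed mice, 5 members were lower in AGRP than in POMC neurons at q under 0.05 and 0 higher (all genes, 4.24% lower and 3.33% higher). They were Rps3 (log2 -0.82, q = 0.00791), Rpl27a (-0.66, q = 0.0385), Rpl41, the shortest protein of the ribosome (-1.22, q = 0.0395), Rpl36 (-1.22, q = 0.0465) and Rps26 (-1.02, q = 0.0466), and 3 of the 5 also fell beyond a log2 change of -1 with a mean over 20 CPM (all genes, 2.31%). An unadjusted p under 0.05 was reached by 41 members, all lower (all genes, 10.5% lower and 8.46% higher), and 73 members were under 0 (all genes, 50.8%). The median member was at -0.63. Rpl41 had 149, 337, 230, 118 and 148 CPM in AGRP fed libraries and 946, 711, 189, 235 and 197 in POMC fed libraries, the last 3 of which lie within the AGRP range.

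The Rps3 call alone held in 9 of 10 fits that left out 1 library, failing without POMC fed replicate 1 (q = 0.0546, edgeR). None of the 5 calls held without POMC fed replicates 1 and 2. The values were then -0.45 for Rps3 (q = 0.209), -0.56 for Rpl27a (q = 0.185), -0.08 for Rpl41, 0.13 for Rpl36 and 0.12 for Rps26, and the median member was 0.18 with 57 above 0 (all genes, 51.7%). Rpl10 was then the 1 member called, higher in AGRP neurons (0.62, q = 0.015, edgeR), where 5.28% of all genes were called. Rpl27a was the 1 member whose groups did not overlap with all libraries, at 82.2, 76.6, 75.5, 69.0 and 63.9 CPM in AGRP fed and 148, 108, 112, 115 and 96.4 in POMC fed libraries (4.55% of all genes separated this way and 4.38% the other). It was also lower in FD mice, by 0.50 on the log2 scale, short of the threshold (q = 0.0662). Over the 27 fixed members the range in fed mice was -1.22 (Rpl41) to 0.40 (Rpl10a), and in FD mice -0.60 (Rps4x) to 1.31 (Rps4l).

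In FD mice, where the 2 libraries take no direct part, 6 members differed between cell types at q under 0.05. Rplp0, Rps4l and Rpl7a were higher in AGRP neurons (all genes, 9.28%), and Rpl15, Rpl36a and Rpl3 lower (9.27%). The median member was at -0.05, with 44 members below 0 and 34 above (all genes, 50.1% and 49.8%). An unadjusted p under 0.05 was reached by 5 members higher and 6 lower (all genes, 15.2% and 15.1%). The split of the members depended on the model. With the ERCC set as a block the median was -0.26 with 61 below 0 (all genes -0.01). On log2(TPM + 1) it was -0.28 with 61 below 0 (all genes -0.15), and with age cohort as a block 0.12 with 56 above 0 (all genes -0.02). Rpl15, a 60S core protein, had 86.6, a median of 142 and 200 CPM in AGRP FD libraries and 270, 308, 234, 290 and 307 in POMC FD libraries. The log2 difference was -0.99 ± 0.235 (q = 0.00251, edgeR), and the groups did not overlap. Rpl36a, at 32.2 to 84.5 CPM in AGRP FD, had 122, 79.2, 120, 114 and 124 in POMC FD libraries, with a log2 difference of -1.06 ± 0.265 (q = 0.00435, edgeR) and an overlap through POMC FD replicate 2. Both calls held in the 11 fits that each left out 1 library and in 13 of 14 other alternatives, the exception being scaling by the ERCC spike-in.

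Rpl3, the 60S protein at the peptidyl transferase centre, had 303, a median of 383 and 461 CPM in AGRP FD and 511, 537, 557, 545 and 547 in POMC FD libraries (log2 -0.49 ± 0.153, q = 0.0237), without overlap. The Rpl3 call was lost without AGRP FD replicate 3 or 5 (highest q = 0.0614, edgeR), with age cohort as a block (q = 0.052) and scaled to the members' total (q = 0.21). Rplp0 stood at 28.7, 45.0, 46.4, 37.5 and 36.2 CPM in POMC FD, all under the AGRP FD libraries (log2 0.94 ± 0.279, q = 0.016). Rpl7a had 198, a median of 231 and 262 CPM in AGRP FD and 142, 166, 177, 194 and 166 in POMC FD libraries (0.43 ± 0.152, q = 0.0476). Rps4l was low in both, with 12.2, a median of 17.0 and 27.2 CPM against 4.85, 14.7, 3.55, 8.06 and 5.59 (1.31 ± 0.458, q = 0.043). Its span overlaps that of Tmtc1, and counting ignored strand. The calls of Rpl7a and Rps4l held in 3 and 2 of the 11 fits that left out 1 library (highest edgeR q = 0.123 and 0.112). With the replicate number as a block q was 0.0806 and 0.0719, with the ERCC set 0.11 and 0.136, and with age cohort 0.053 and 0.0435. Rpl10 and Rps15a also separated the groups, higher and lower in AGRP neurons, without passing (q = 0.0618 and 0.12). In all, 3 members were separate and higher and 3 separate and lower, where 5.94% and 5.49% of all genes were.

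Within the AGRP libraries, Rpl15 differed between the youngest mice and the rest. In the 5 libraries counted as dosed by cell number, fed and FD, which include AGRP FD replicate 2 (94.4 CPM), it lay between 86.6 and 99.6 CPM, and in the 6 others between 184 and 236. For 11 of 78 members all 5 libraries were below the 6 others (14.1%; all genes, 1.05%), among them Rpl5, Rps20, Rpl30 and Rps28. These 5 mice were the youngest, at day 46 or 47, so dosing and age cannot be told apart. With the ERCC set as a block, Rpl15 and Rpl36a still passed in the comparison of FD mice, and Rplp0 did not.

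**Figure D5:**
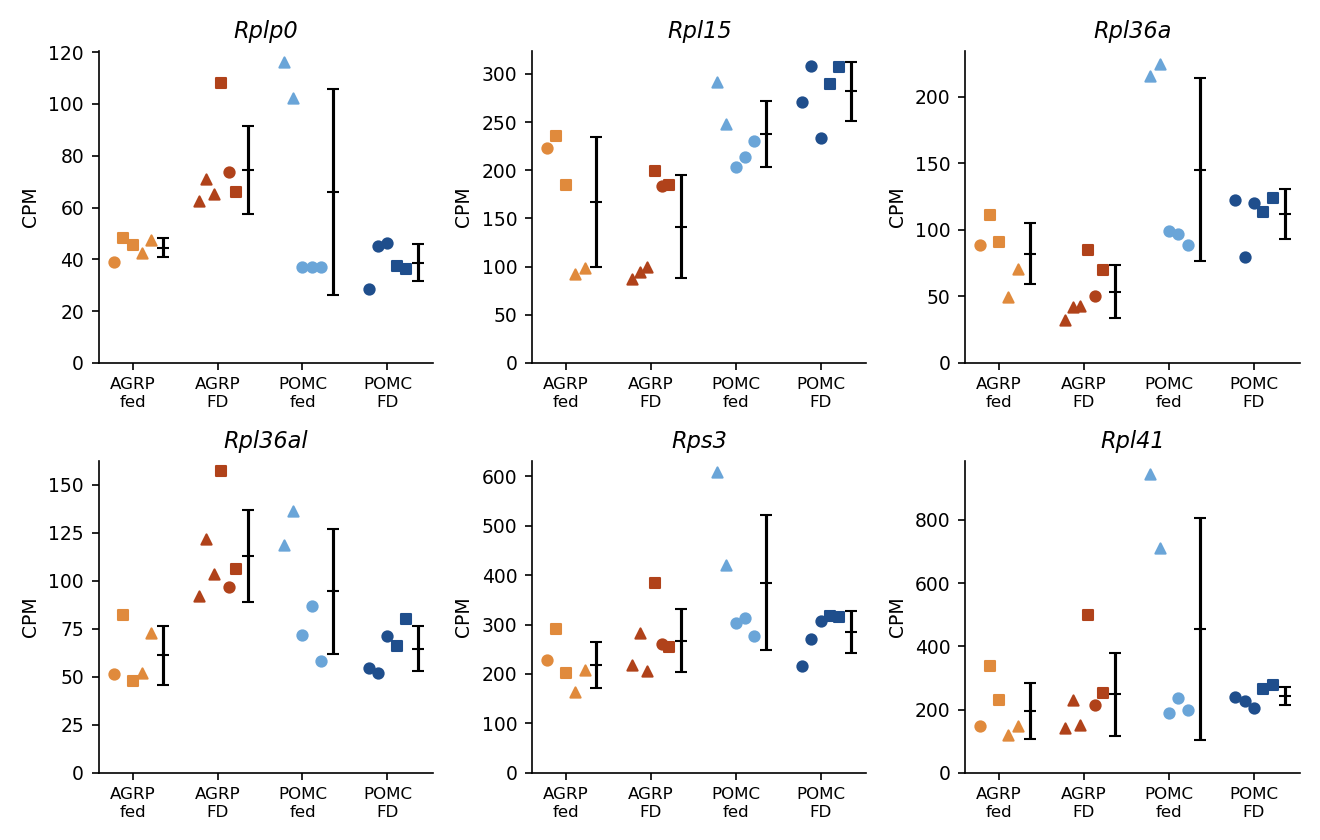
CPM (TMM-scaled) of 6 genes in each library, with group mean and SD. The marker gives the spike-in dosing, circle 1 µl, square 10 µl and triangle by cell number. Rplp0 is separate between AGRP fed and AGRP FD, Rpl15 is lower in the triangles than in the other AGRP libraries, and Rps3 and Rpl41 are highest in POMC fed replicates 1 and 2.

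The response to deprivation was compared directly between cell types by the interaction term. Rplp0 alone passed, with a change 1.51 ± 0.399 larger in AGRP than in POMC neurons on the log2 scale (q = 0.019, edgeR), where 4.08% of all genes did in this direction and 2.63% in the other. An unadjusted p under 0.05 was reached by 15 members, all higher (all genes, 10.8% higher and 9.13% lower). The median member was at 0.59, with 71 above 0 and 7 below (all genes, 50.3% and 49.7%). Without POMC fed replicates 1 and 2 no member passed (all genes, 4.69%), 6 had an unadjusted p under 0.05 (all genes, 18.2%), the median was -0.19 with 61 below 0 (all genes, 52.3%), and Rplp0 was at 0.67 (q = 0.244). The change of Rplp0 in POMC neurons went from -0.76 to 0.07 when they were left out.

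The ribosomal genes outside the symbol rule were 8, and Rpl36al is the 1 that passed with deprivation. This autosomal retrocopy encodes a protein nearly the same as that of Rpl36a. It rose in AGRP neurons from 61.1 ± 15.3 to 113 ± 23.9 CPM (log2 0.88 ± 0.221, q = 0.00838, edgeR), opposite in sign to Rpl36a at -0.61. Its interaction term was 1.43 ± 0.317 (q = 0.00503), and 1.04 ± 0.306 (q = 0.0465) without POMC fed replicates 1 and 2, which had 119 and 136 CPM against 71.9, 86.7 and 58.2 in the other 3. In FD mice it was also higher in AGRP than in POMC neurons (0.80, q = 0.00927), where Rpl36a was lower (-1.06). The difference between the paralogs was not tested. Rps3a1, Gnb2l1 (Rack1) and Fau had log2 fold changes between -0.13 and 0.07 in AGRP neurons, with the lowest q of 0.817 for Rps3a1.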

How the data were processed

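RNA from the sorted cells of each mouse was amplified and sequenced as 100-base reads. Per the labels and the study's methods, the authors trimmed reads with cutadapt 1.7.1, removed ribosomal reads with Bowtie2 2.1.0, aligned with STAR 2.4.0i to mm10 with GENCODE basic annotation, and counted uniquely mapped reads per gene with HTSeq 0.6.1p1 without strand. The deposited counts are raw counts per gene, and the TPM were computed by the authors. The 92 ERCC and 5 summary entries were kept out of library sizes and tests. Reads outside genes equalled 24.2 to 52.1% and ERCC reads 0.125 to 13.5%. Gene counts were 9822298 to 37663979 per library, so that 3 counts equal 0.0797 to 0.305 CPM. Reads carry no molecular identifiers, and this floor covers counting error only.

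The counts were tested with edgeR 4.0.16 (R 4.3.3, TMM, quasi-likelihood) on 16513 genes with CPM over 1 in at least 3 libraries, with the 4 groups in 1 model and Benjamini-Hochberg adjustment. A larger change meant q under 0.05, a log2 fold change beyond 1 and a mean over 20 CPM. Alternatives used limma 3.58.1, DESeq2 1.42.0, other scalings, filters, blocks and the TPM. The scripts were tested on simulated data. Replicate numbers mark different mice. Members and lists were chosen with earlier results of these data known. Named were 30 fixed members, the 5 called members with the largest and smallest changes per comparison, the 5 highest and lowest by TPM, and up to 4 called genes per other list and comparison. Rps15, Rps16, Rps28, Rpl30 and some genes named for contrast were chosen after their values were seen. Start sites came from the RefSeq promoter table (GRCm38.p6), and shared windows from GENCODE M21 transcripts, a later release than the authors used. Figures were drawn with matplotlib 3.10.9.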

Additional observations from a re-analysis of the deposited data

Results flagged for a closer look

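In 152 groups of 5 or 6 libraries, 12 had a highest or lowest library apart from the rest by Dixon's test, which chance alone gives in about 5% of independent groups. These groups share libraries and are not independent. The test takes 1 extreme library, so 2 high libraries such as POMC fed replicates 1 and 2 can hide each other. AGRP FD replicate 4, the library with the most counts (37663979) and an ERCC share of 13.5%, was the highest in 7 of the 12. It had 77.5 CPM for Rps19 (next 45.9), 194 for Rpl23 (126), 178 for Rpl39 (84.8), 500 for Rpl41 (254), 108 for Rplp0 (73.9), 172 for Rpl36 (86.8) and 256 for Rps21 (132). POMC fed replicate 1 had 42.2 CPM of Rps4l (next 16.4), and POMC fed replicate 2 had 249 of Rpl7a (181). POMC FD replicate 3 had 185 CPM of Rpl5 (163), and POMC FD replicate 2 was highest for Rps26 at 106 (83.8) and lowest for Rpl36a at 79.2 (114). The change of Rplp0 with deprivation was larger in AGRP than in POMC neurons by 1.5 on the log2 scale (edgeR interaction, q = 0.019), and without POMC fed replicates 1 and 2 it was 0.67 (q = 0.244). The causes were not tested.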

How the results depend on the processing

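The 14 alternatives set out at the start were run besides leaving out each library, and 2 more, leaving out POMC fed replicates 1 and 2 or using the 1 µl POMC libraries alone, were chosen after seeing the data. For AGRP FD against fed, 0 members were called, against 1 with the 2 groups alone, 1 with age as a block, 3 with the length offset and 4 on log2(TPM + 1) and 4 on log2(TPM + 0.1), and ERCC scaling called 97 genes in place of 1700. For POMC FD against fed, 62 genes were called, against 382 with DESeq2, 13 with ERCC scaling, 32 without the 2 libraries, 19 in the 1 µl libraries and 40 to 111 leaving out 1 library. The members' median moved from -0.59 to -2.05 (all genes -1.11), 0.20 and 0.13 with ERCC scaling, without the 2 libraries and in the 1 µl libraries. It was -0.25 with the length offset, -0.26 on TPM, -0.06 scaled to the members' total, -0.01 with age as a block, and -0.28 or -0.36 without POMC fed replicate 1 or 2 alone, where the fed median of -0.63 became -0.30 or -0.40 and the interaction median 0.29 or 0.39. In fed mice, 5 members were called, against 2 with limma-voom, 0 with ERCC scaling, 0 scaled to the members' total, 11 with no CPM filter, 2 with the 2 groups alone, 0 with age as a block, 36 with the ERCC set as a block, 9 with the length offset, 3 and 3 on TPM and 1 without the 2 libraries. Leaving out 1 library gave 0 (POMC fed replicate 1) to 22 (POMC fed replicate 5). ERCC scaling called 297 genes in place of 1250. Without the 2 libraries the median was 0.18, and Rpl36 (0.13) and Rps26 (0.12) turned direction. In FD mice, 6 members were called, against 0 with ERCC scaling and 3 scaled to the members' total, and 3 (without AGRP FD replicate 5) to 6 leaving out 1 library. ERCC scaling called 1117 genes in place of 3064, gave a median of 0.89 (all genes 1.10) and turned Rpl3 to 0.53. The FD median of -0.05 became -0.26 with the ERCC set as a block, -0.28 on log2(TPM + 1) and 0.12 with age as a block. For the interaction, 1 member was called, against 3 with DESeq2, 0 with ERCC scaling, the members' total, age as a block, either TPM scale or without the 2 libraries, and 0 (without POMC fed replicate 1 or 2) to 3 leaving out 1 library. Its median of 0.59 became 1.89 with ERCC scaling, 0.0211 on log2(TPM + 1), 0.0210 on log2(TPM + 0.1) and -0.19 without the 2 libraries, and ERCC scaling called 119 genes in place of 1108. Same-numbered samples correlated at -0.208 to 0.127, so the numbers do not pair them; with a replicate block 1 member was called in fed mice and 4 in FD mice. The causes were not tested. Counts of 3 per library limit what depth can show.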
